A study of Mus musculus with 4 samples.

Results

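The S100 genes encode small calcium-binding proteins with a pair of EF-hand motifs. Most act as dimers that change shape when calcium binds and then grip partner proteins such as annexins, and several are also secreted. S100B is used as a marker of Schwann cells in peripheral nerve, S100a8 and S100a9 make calprotectin, a protein complex of neutrophils, and S100a4 and S100a6 are known from fibroblasts, migrating cells and growing cells. The 10 members described here, S100b, S100a1, S100a4, S100a6, S100a8, S100a9, S100a10, S100a11, S100a13 and S100a16, were taken by name from the 32285 genes of the matrices. All 10 were listed. A further 7 family genes (S100a2, S100a3, S100a5, S100a7a, S100a14, S100g and S100z) are given only as a group. The question for S100b was which cells the reporter of this study marks, and the question for the others was in which cells they were measured and whether they differed between genotypes or sorts.

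The samples were 4 droplet libraries of cells freed by enzyme digestion from the tibialis anterior and gastrocnemius of male mice at 2 months of age. All mice carried S100GFPtg, which makes EGFP under the S100B promoter. WT mice had Sod1 intact, and Sod1KO mice lacked both copies (Sod1-/-), with 4 mice pooled for each genotype. Live cells were sorted by fluorescence, and the GFP+ and GFP- cells of each pool were sequenced as 1 library apiece, so no difference below has a replicate check and no p-value is given. Where a pair of values is given for the genotypes without further words, WT comes first and the library labelled Sod1KO second. A fluorescent cell shows activity of the transgene and not of the mouse's own S100b gene, and no gene of the matrices was named for GFP (0 of 32285).

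After filtering, the GFP+ libraries kept 4557 (WT) and 5925 (Sod1KO) cells, and the GFP- libraries 1638 and 5143, at medians of 12308, 12952, 8023.5 and 14658 UMIs (unique molecular identifiers, 1 per captured transcript end). Sod1 itself did not mark the genotype. In UMIs per 1000000 (CPM) its level was 90.6 (WT) and 98.3 (labelled Sod1KO) among GFP+ cells, and 123 and 113 among GFP- cells. Only transcript ends were tagged, and the sources used here do not give which part of Sod1 was deleted, so these tags may not check the labels. Every direction between genotypes below therefore rests on the labels. Pairs of libraries shared 1 to 13 cell barcodes, 42 in all.

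Cells were clustered without any S100 gene, so that no member took part in making the clusters. Classes carry the ending "-like" because they were named from fixed marker lists. The mSC-like class (myelinating Schwann cells, with 13 of 13 markers in both of its clusters) held 1077 and 656 cells in the GFP+ libraries. The tSC-like class (terminal or other nonmyelinating Schwann cells, with 8 to 12 of 12 markers) held 380 and 882 cells. In the GFP- libraries both classes were nearly empty, with 4 and 10 Schwann-like cells. Levels are in CPM, the UMIs of a gene per 1000000 UMIs of the class. Intervals are exact 95% intervals, and they cover counting error only.

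In the GRCm38.p6 (mm10) annotation of RefSeq, 9 of the 10 members lie on chromosome 3 within 3054 kb and S100b lies alone on chromosome 10 (76253836 to 76261319, plus strand). S100a4 (90603770 to 90606045) and S100a6 (90612894 to 90614414) are neighbours on the plus strand of chromosome 3, 6848 bases apart. S100a8 (90669071 to 90670034) and S100a9 (90692630 to 90695721) are 22595 bases apart on opposite strands. S100a1 (90511034 to 90514330, minus strand) and S100a13 (90514233 to 90524581, plus strand) stand head to head and overlap by 98 bases. S100a16 spans 90537254 to 90543151, S100a11 93520496 to 93526288 and S100a10 93555117 to 93564645.

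The 250 bases before the annotated start of transcription are printed for 4 members: S100b, whose promoter names the reporter, the neighbours S100a4 and S100a6, which differed together between tSC-like clusters, and S100a11, which was low in Schwann-like cells. They read 5' to 3' on the strand of the gene and come from RefSeq on GRCm38.p6, at chr10:76253586-76253835, chr3:90603520-90603769, chr3:90612644-90612893 and chr3:93520246-93520495. Capitals mark matches on either strand to any of 6 short motifs: the TATA box as TATAAA, the AP-1 site as TGAGTCA, the core of SOX factors as ACAAAG or in its other form as AACAAT, the E-box as CACGTG, and the TEAD core as GGAATG.
S100b: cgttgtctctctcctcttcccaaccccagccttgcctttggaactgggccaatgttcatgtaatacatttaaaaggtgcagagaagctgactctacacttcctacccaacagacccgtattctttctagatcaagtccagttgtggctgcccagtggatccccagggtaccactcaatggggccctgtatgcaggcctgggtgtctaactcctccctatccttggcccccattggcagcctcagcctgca
S100a4: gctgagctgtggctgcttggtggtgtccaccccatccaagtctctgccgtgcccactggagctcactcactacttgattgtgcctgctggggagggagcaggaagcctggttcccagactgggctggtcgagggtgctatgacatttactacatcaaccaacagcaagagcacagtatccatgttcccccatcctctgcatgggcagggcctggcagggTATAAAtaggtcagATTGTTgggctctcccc
S100a6: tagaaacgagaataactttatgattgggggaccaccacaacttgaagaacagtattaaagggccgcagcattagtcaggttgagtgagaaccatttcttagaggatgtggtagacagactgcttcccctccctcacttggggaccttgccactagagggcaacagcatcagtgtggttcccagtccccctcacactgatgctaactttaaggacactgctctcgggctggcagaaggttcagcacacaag
S100a11: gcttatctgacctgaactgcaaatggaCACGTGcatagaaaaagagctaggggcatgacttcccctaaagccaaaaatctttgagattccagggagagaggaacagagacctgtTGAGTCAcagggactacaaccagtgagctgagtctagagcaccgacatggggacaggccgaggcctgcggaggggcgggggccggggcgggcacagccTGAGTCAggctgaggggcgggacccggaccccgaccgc
The S100b and S100a6 windows held 0 of these motifs. The S100a4 window held TATAAA 31 bases before the start, a motif found in 12.4% of all 32851 windows of this length, and AACAAT on the reverse strand, found in 9.42%. The S100a11 window held TGAGTCA at 2 places, 136 and 38 bases before the start, a motif present in 4.46% of all windows, and CACGTG, present in 6.02%. TATAAA was also found 30 bases before the start of S100a8. A match is a description of letters and not of a bound site.

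The members were spread over the muscle's cells in different ways. Within GFP+ libraries, S100b was highest in mSC-like cells, S100a4 and S100a1 in tenocyte-like cells, S100a10 in mesenchymal-like cells, and S100a16 in endothelial-like cells, in both genotypes, although S100a16 was as high in mesenchymal-like cells of the library labelled Sod1KO (264 against 265 CPM). S100a11 was lowest in mSC-like cells in both. S100a8 and S100a9 were near 0 outside a few cells. The other 7 family genes had 0 to 977 UMIs in a whole library, S100a5 the most with 977 in WT GFP+, where it reached 62.0 CPM in tenocyte-like cells, and S100z had 1 UMI in all 4 libraries together.

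**Figure D1:**
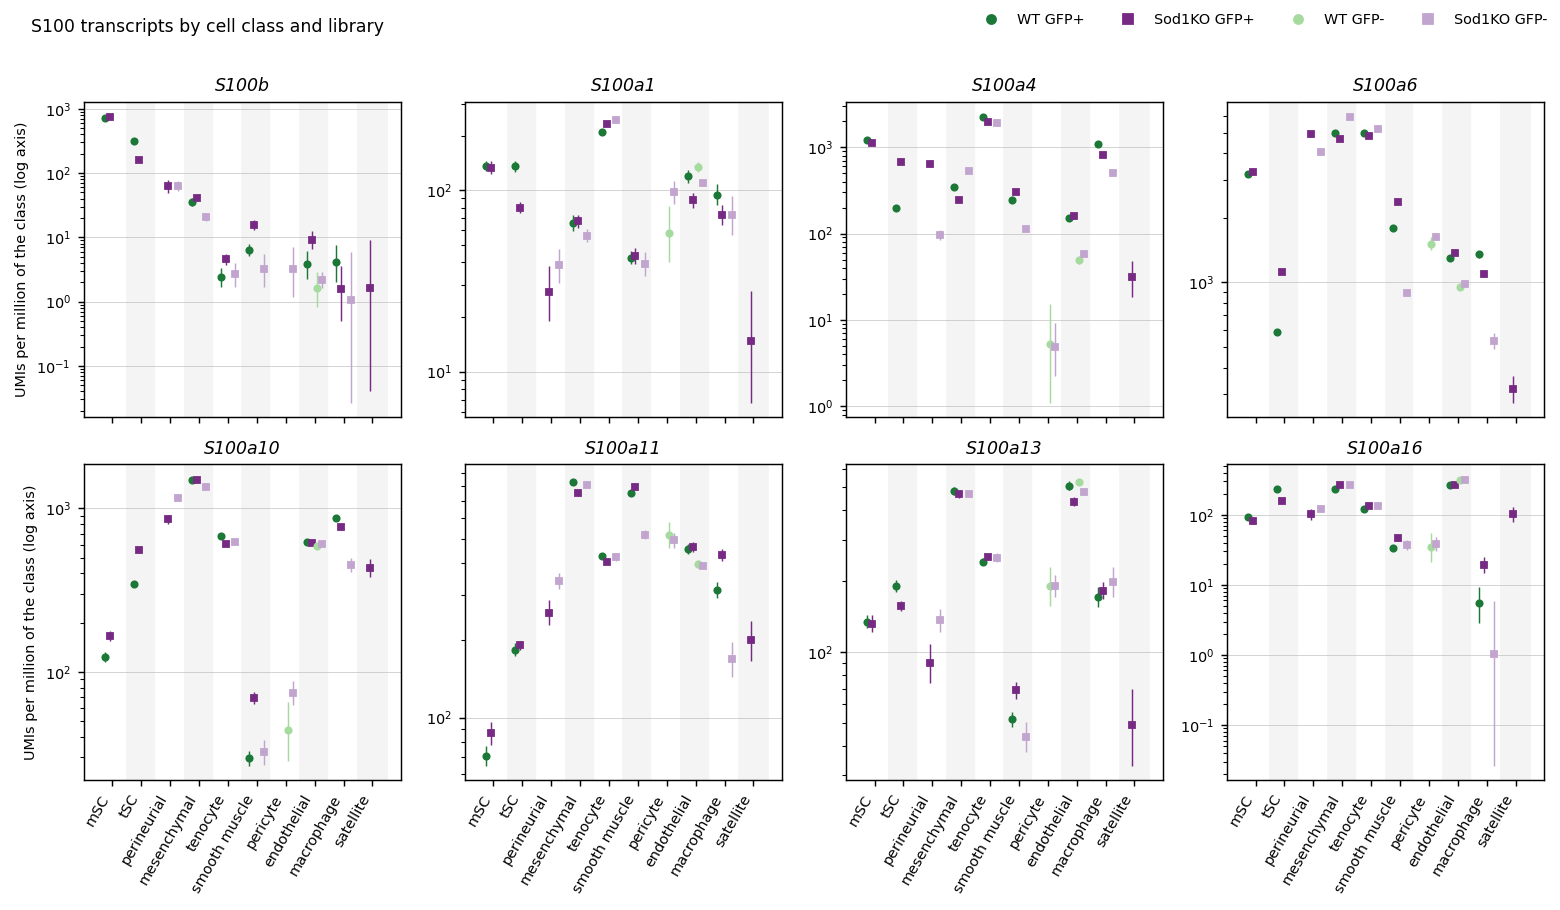
CPM in a class (y axis, log scale) for 8 S100 genes in 10 cell classes (x axis), with points for each library of at least 50 cells in the class and bars for exact 95% Poisson intervals. Points at 0 UMIs are not drawn. S100b falls from 734 and 744 in mSC-like cells to below 10 in endothelial-like cells, and S100a11 is lowest in mSC-like cells.

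S100b was the member that set Schwann-like cells apart. In mSC-like cells of the GFP+ libraries it had 734 CPM (interval 714 to 754, from 5225 UMIs) in WT and 744 (719 to 770, 3273 UMIs) with the label Sod1KO. In tSC-like cells it had 316 CPM (302 to 331) and 161 (153 to 168). All cells of the same libraries outside these classes, with cluster 9 (described below) among them, averaged 42.8 and 38.1 CPM. Of the S100b UMIs of these other cells, cluster 9 held 1764 of 2502 in WT and 1239 of 2831 with the label Sod1KO. The log2 ratio of mSC-like over those other cells was 4.10 (4.03 to 4.17) for WT and 4.29 (4.22 to 4.36) for the library labelled Sod1KO, and that of tSC-like cells was 2.88 (2.80 to 2.97) and 2.08 (1.99 to 2.16).

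Among the 8 members with enough counts in that contrast, 3 were past a 2-fold difference in mSC-like cells of WT GFP+ and 4 in tSC-like cells, S100b upwards and the rest downwards. The background was large, since 37.7% of all genes tested were past 2-fold in mSC-like cells of WT and 33.7% in tSC-like cells, with 38.2% and 32.8% where the label was Sod1KO. A gene was tested at 20 CPM or more in the higher group, and this holds for every 2-fold count. The median log2 ratio of the 8 members in mSC-like cells of WT was −0.24, against 0.08 over all genes.

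Cluster 9 carried S100b too. It held 13 of 13 myelin markers together with perineurial genes, and so stayed unnamed, with 317 and 305 cells in the GFP+ libraries. S100b had 283 CPM (270 to 296) and 176 (167 to 186) there. The Schwann-like classes held 73.9% of all S100b UMIs of WT GFP+ with 32.0% of its cells, and 63.8% of those labelled Sod1KO GFP+ with 26.0% of the cells. Cluster 9 held a further 18.4% and 15.8%.

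Outside Schwann-like cells S100b was low but not even. In WT GFP+ it had 83.5 CPM (57.8 to 117) in 42 perineurial-like cells, 109 (91.2 to 129) in the 78 cells of cluster 13 and 35.2 (30.5 to 40.5) in mesenchymal-like cells. Cluster 13 was led by Smim41, Saa1, Fetub and Cxcl14 and carried 9 of 13 mesenchymal markers, short of a name. In the library labelled Sod1KO GFP+ the same groups had 62.2 (49.1 to 77.7), 95.6 (85.9 to 106) and 41.7 (37.3 to 46.4). The intervals of perineurial-like cells and cluster 13 overlapped in WT. Within the smooth muscle-like class the 57 WT cells of cluster 24, led by Actg2, had 69.9 CPM (54.5 to 88.3) and the 554 cells of cluster 4 had 1.29 (0.735 to 2.09). Endothelial-like cells had 3.82 CPM (2.27 to 6.04), tenocyte-like cells 2.37 (1.66 to 3.29), and the 38 satellite-like cells of WT held 0 UMIs of S100b, which allows a share of cells with a UMI of up to 7.89% when the limit is taken as 3 cells of 38, or 9.25% by the exact interval.

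To compare shares of cells, UMIs were drawn at random down to 1000 per cell (thinning), which left out 158 and 147 shallower GFP+ cells and 81 and 157 GFP- cells. S100b was then seen in 48.0% (45.03 to 51.1) of mSC-like cells of WT GFP+ and 48.5% (44.6 to 52.4) of those labelled Sod1KO. In tSC-like cells the shares were 25.9% (21.5 to 30.6) and 14.5% (12.3 to 17.1). Of the GFP+ cells outside both classes, 4.55% (3.83 to 5.37) of WT cells and 3.51% (2.98 to 4.11) of cells labelled Sod1KO had an S100b UMI. Unthinned, the values were 21.3% and 22.7%, with a median of 17801 and 15755 UMIs per cell. After thinning, endothelial-like cells gave 0.326% (0.00825 to 1.80) of 307 WT cells and 0.980% (0.203 to 2.84) of 306 cells labelled Sod1KO. Unthinned, their shares were 5.21% and 7.19%, and their median cell held 11432 and 11404.5 UMIs. Tenocyte-like cells were at a like low share after thinning, with 0.398% and 0.484%, and unthinned at 6.56% and 7.54%.

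The GFP- libraries held little S100b, with 151 and 654 UMIs, or 7.56 and 7.94 CPM, against 134 and 87.4 CPM in GFP+. In WT GFP-, 63.6% of these UMIs sat in 4 mSC-like cells, in which S100b was at 1557 CPM (1262 to 1902). In the library labelled Sod1KO GFP-, 10 Schwann-like cells held 7.19%, while mesenchymal-like cells held 33.8% and perineurial-like cells 22.2%. The 110 perineurial-like cells of Sod1KO GFP- had 63.5 CPM (53.6 to 74.8), close to the 62.2 of their GFP+ counterparts, and the log2 ratio of GFP+ over GFP- was −0.03 (−0.45 to 0.38). In mesenchymal-like cells S100b was 41.7 CPM in GFP+ against 20.7 (18.1 to 23.6) in GFP-, a log2 ratio of 1.01 (0.76 to 1.26). Both of the larger mesenchymal-like clusters showed that order, with 44.7 against 23.8 CPM in cluster 5 (led by Myoc and Fst) and 60.0 (50.8 to 70.5) against 34.1 (21.1 to 52.2) in cluster 6 (led by Mlana and Inmt), where the intervals overlapped.

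S100a4, which binds nonmuscle myosin and is known from motile cells, differed among Schwann-like cells. In GFP+ it had 1196 and 1106 CPM in mSC-like cells, and 198 (187 to 210) and 674 (659 to 690) in tSC-like cells. Within the tSC-like class it was low in cluster 12, at 140 and 133 CPM, and near the mSC-like level in cluster 8, at 854 and 931. Tenocyte-like cells had the most, with 2262 and 1942 CPM in GFP+ and 1894 (1864 to 1923) in Sod1KO GFP-. Macrophage-like cells had 1098 and 820 CPM in GFP+.

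S100a6, also called calcyclin, followed a like order in the Schwann-like classes. It had 3207 and 3269 CPM in mSC-like cells and 585 and 1115 CPM in tSC-like cells. Tenocyte-like cells had 4982 and 4829 CPM, mesenchymal-like cells 4958 and 4683, and smooth muscle-like cells 1801 and 2376. The satellite-like cells of the library labelled Sod1KO GFP+ had the lowest value of that library, 316 CPM.

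S100a10 and S100a11, the partners of annexin A2 and annexin A1, were low in mSC-like cells. S100a10 had 123 CPM (WT) and 166 (labelled Sod1KO) there, 344 and 558 in tSC-like cells, and 556 and 642 in the other cells of the same libraries. S100a11 had 71.1 and 86.9 CPM in mSC-like cells, 184 and 191 in tSC-like cells, and 520 and 481 in the other cells. The log2 ratio of S100a11 in mSC-like over other cells was −2.87 (−3.00 to −2.74) in WT and −2.47 (−2.62 to −2.32) in the library labelled Sod1KO. In WT, annexin A2 (Anxa2) was at 291 CPM in mSC-like cells and at 420 in tSC-like ones.

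S100a1, known as a regulator of calcium release and uptake in muscle, was not highest in any Schwann-like class. It had 136 CPM in both mSC-like and tSC-like cells of WT, and 133 and 80.1 with the label Sod1KO. Tenocyte-like cells had 208 and 232 CPM. Its target in the endoplasmic reticulum, the calcium pump Atp2a2, had 90.2 and 87.8 CPM in mSC-like cells, while Ryr1, Ryr2 and Atp2a1 stayed under 2 CPM in both Schwann-like classes of both GFP+ libraries.

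S100a13, which takes part in the release of Fgf1, and S100a16 were measured in every class. S100a13 had 509 CPM in endothelial-like and 481 in mesenchymal-like cells of WT GFP+, and 135 and 190 in the mSC-like and tSC-like classes. Its head-to-head neighbour S100a1 had 119 and 66.0 CPM in those endothelial-like and mesenchymal-like cells, so the pair did not share 1 order across classes. S100a16 had 237 CPM in tSC-like cells of WT and 93.8 in mSC-like cells, with 266 in endothelial-like cells and 5.44 in macrophage-like cells.

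S100a8 and S100a9 came from a handful of cells. S100a8 had 10 (WT) and 231 (labelled Sod1KO) UMIs in the GFP+ libraries and 0 and 1 in the GFP- libraries, and S100a9 had 0, 381, 0 and 0. In the library labelled Sod1KO GFP+, 3 cells with 5 UMIs or more held 94.4% of the S100a8 UMIs and 99.7% of the S100a9 UMIs. Those 3 cells had 7, 95 and 116 UMIs of S100a8, and 16, 108 and 256 of S100a9. All 3 lay in the macrophage-like cluster 15. They carried 3, 5 and 5 of the 10 listed neutrophil markers, with Csf3r, Cxcr2 and Mmp9 in each. Ly6g, Ngp, Camp and Cd177 were detected in none of them. Another 44 cells of that library had 2 or more of these markers without 5 UMIs of either gene. In the 5143 cells of Sod1KO GFP- no cell had 5 UMIs of either gene.

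Between genotypes, mSC-like cells showed 0 of 8 members past 2-fold, against a background of 0.778% of 6558 genes. With WT as the base, the log2 ratio was 0.02 (−0.04 to 0.08) for S100b, −0.11 (−0.16 to −0.06) for S100a4, 0.03 for S100a6 and −0.04 (−0.19 to 0.11) for S100a1. S100a10 was the largest, 0.43 (0.29 to 0.58), followed by S100a11, 0.29 (0.09 to 0.48). The median over the 8 members was −0.00, against −0.03 over all genes.

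In tSC-like cells the differences were wider. S100a4 was past 2-fold, with a log2 ratio of 1.77 (1.68 to 1.86) upwards in the library labelled Sod1KO, which made 1 of 8 members against a background of 6.85% of 7149 genes. S100a6 followed at 0.93 (0.88 to 0.98) and S100a10 at 0.70 (0.63 to 0.77). S100b was lower at −0.98 (−1.07 to −0.88), S100a1 at −0.76 (−0.90 to −0.62), S100a16 at −0.57 (−0.67 to −0.47) and S100a13 at −0.27 (−0.38 to −0.16). S100a11 was at 0.06 (−0.05 to 0.16).

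The class was made of different shares of its clusters in the 2 libraries. Each class ratio above, those of S100a1 and S100a16 included, therefore compared unequal mixes of clusters. Cluster 12, led by Unc80, Bche and Slitrk3, gave 80.5% of the tSC-like cells of WT and 23.8% of those of the library labelled Sod1KO, while cluster 8, led by Ucn2, Olig1 and Btc, gave 16.1% and 66.3%. S100a4 had 140 (130 to 150) and 133 (120 to 146) CPM in cluster 12. In cluster 8 it had 854 (774 to 940) and 931 (909 to 953). Within a cluster the log2 ratio of S100a4 was thus −0.075 in cluster 12 and 0.12 in cluster 8, against 1.77 for the class. S100a6 had 450 and 457 CPM in cluster 12, and in cluster 8 it was lower with the label Sod1KO, 1440 against 2114. These values within clusters were added after the data had been seen.

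S100b kept its direction within both clusters. In cluster 12 it had 310 (295 to 325) and 258 (240 to 277) CPM, a log2 ratio of −0.26 (−0.39 to −0.14). In cluster 8 it had 416 (361 to 477, 61 cells) and 129 (121 to 138, 585 cells), a log2 ratio of −1.68 (−1.90 to −1.46). The 13 myelin markers summed to 5537 CPM in the 61 WT cells of cluster 8 and 2002 CPM in its 585 cells labelled Sod1KO, and their part in the S100b difference was not tested. The small cluster 32, with 13 and 87 cells, had 28.5 CPM of S100b in the library labelled Sod1KO. S100a10 was higher within both clusters, at 398 against 333 CPM in cluster 12 and 651 against 493 in cluster 8. The log2 ratio of S100a11 was 0.06 (−0.10 to 0.22) in cluster 12 and −0.65 (−0.88 to −0.40) in cluster 8. That of S100a13 was −0.10 (−0.26 to 0.05) in cluster 12 and −0.51 (−0.79 to −0.22) in cluster 8.

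**Figure D2:**
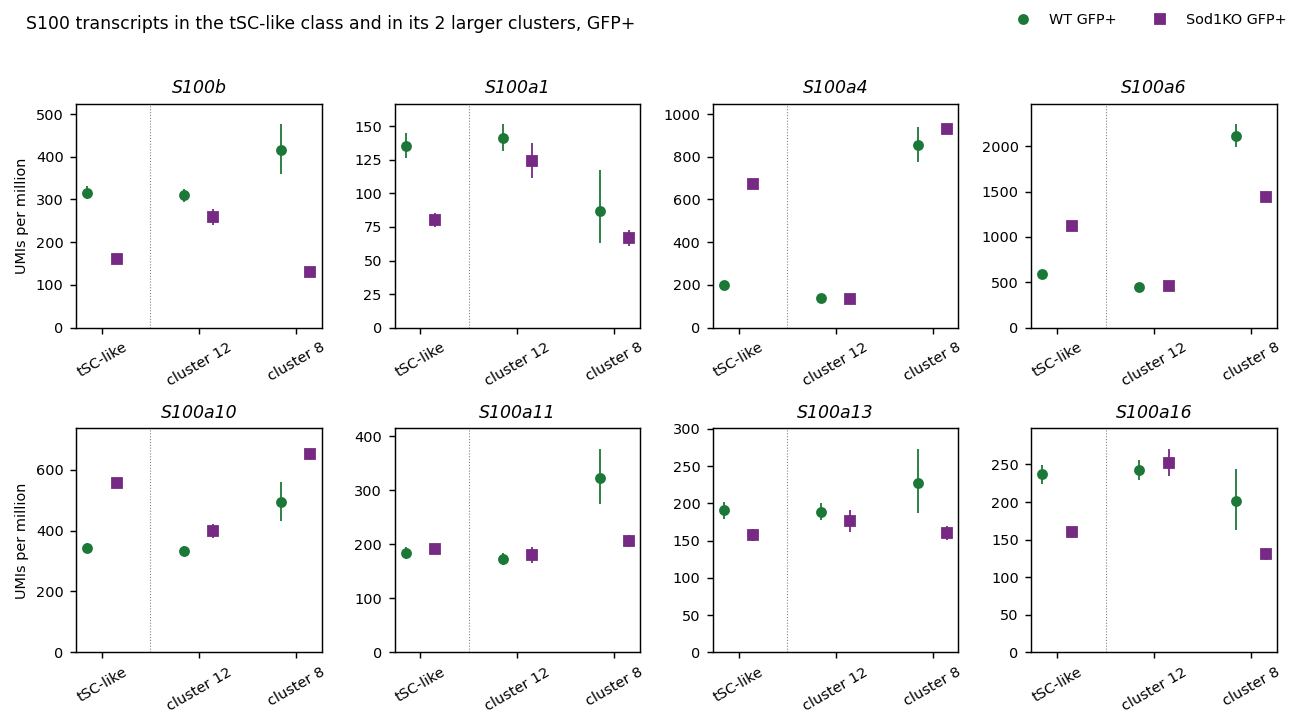
CPM (y axis, from 0) of 8 S100 genes in the tSC-like class and in clusters 12 and 8 (x axis), for WT GFP+ (circles) and Sod1KO GFP+ (squares), with exact 95% Poisson intervals. S100a4 differs between the libraries in the whole class, 198 against 674, and lies near 140 in cluster 12 and near 900 in cluster 8 in both.

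In the other GFP+ classes no member with 20 CPM or more was past 2-fold in endothelial-like cells (0 of 7, background 1.22%), mesenchymal-like cells (0 of 8, background 1.07%) or tenocyte-like cells (0 of 7, background 0.558%). S100b was below that minimum in several classes. Its log2 ratio was 1.28 (0.45 to 2.16) in endothelial-like cells (18 and 43 UMIs), 1.28 (0.88 to 1.69) in smooth muscle-like cells (86 and 132 UMIs) and 0.94 (0.38 to 1.52) in tenocyte-like cells (36 and 108 UMIs), higher with the label Sod1KO. In macrophage-like cells 2 of 8 were, S100a8 and S100a9, against a background of 4%, and both rest on the 3 cells described for that library. When cells were assigned to classes one by one from markers, the S100a8 ratio was −2.25. In smooth muscle-like cells 1 of 7 was, against a background of 1.38%: S100a10, with 29.6 and 69.3 CPM, a log2 ratio of 1.23 (1.04 to 1.41). Cluster 24 gave 57 of 611 and 80 of 475 cells of that class, and within cluster 4 S100a10 was 9.97 and 23.4 CPM.

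Between sorts, the library labelled Sod1KO allowed a comparison within 6 classes. S100a4 was past 2-fold in 4 of them, and not in 1 direction. It was higher in GFP+ in perineurial-like cells, with 631 CPM (587 to 676) against 96.4 (84.1 to 110), a log2 ratio of 2.71 (2.49 to 2.93). Endothelial-like cells had 159 against 58.0 CPM, 1.46 (1.33 to 1.59), and smooth muscle-like cells 301 against 113, 1.41 (1.27 to 1.55). In mesenchymal-like cells it was lower in GFP+, with 246 against 530 CPM, −1.11 (−1.18 to −1.03). Tenocyte-like cells differed little, with 1942 against 1894 CPM.

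S100a4 was also read within clusters of the endothelial-like and mesenchymal-like classes, and in pericyte-like cells. In cluster 11, the endothelial-like cluster led by Gkn3, Cytl1 and Gja5, S100a4 had 732 and 706 CPM in the GFP+ libraries and 215 and 316 in the GFP- ones, in the order WT and Sod1KO. In cluster 1, the endothelial-like cluster led by Nos2 and Car4, it had 5.14 and 46.1 against 2.77 and 4.3 CPM. Pericyte-like cells had 88.2 CPM (42 cells) and 283 (48 cells) in GFP+ and 5.29 (52 cells) and 4.87 (206 cells) in GFP-. In cluster 5 the order differed between genotypes, with 738 CPM in WT GFP+ against 464 in the 33 cells of WT GFP-, and 299 against 582 in the libraries labelled Sod1KO.

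The markers of tenocyte-like cells, the class richest in S100a4, were read beside these values. Their 11 genes summed to 26816 to 28476 CPM in tenocyte-like cells. In perineurial-like cells, where S100a4 was higher in GFP+, they summed to 341 CPM in Sod1KO GFP+ and to 838 in Sod1KO GFP-. In endothelial-like cells they summed to 79.6 and 28.3 CPM, in smooth muscle-like cells to 267 and 151, and in pericyte-like cells to 153 and 31.9, with 0 to 4 of the 11 genes at 0 in these groups. Mesenchymal-like cells, where S100a4 was lower in GFP+, had 454 against 309 CPM of these markers. In WT the pericyte-like cells had 58.8 CPM of them in GFP+ and 185 in GFP-, with 6 and 9 of the 11 genes at 0, while S100a4 was higher in GFP+. The mSC-like and macrophage-like classes were rich in S100a4 as well. The 13 mSC markers summed to 499 (GFP+) against 275 (GFP-) CPM in perineurial-like cells of Sod1KO, to 238 against 103 in endothelial-like cells and to 277 against 138 in smooth muscle-like cells, with 0 to 5 of the 13 at 0. In the same order the 10 macrophage markers summed to 63.0 against 7.01, 22.4 against 15.7 and 12.3 against 13.99 CPM, with 1 to 5 of the 10 at 0. The part of these 3 marker lists in the S100a4 difference was not tested.

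Read against the background, the count of members past 2-fold between sorts was 1 of 8 in perineurial-like cells (9.28% of all genes), 1 of 7 in endothelial-like cells (4.73%), 3 of 7 in smooth muscle-like cells (3.03%), 2 of 8 in mesenchymal-like cells (1.99%), 4 of 8 in macrophage-like cells (12.6%) and 0 of 7 in tenocyte-like cells (0.359%). The mesenchymal-like members were S100b and S100a4. Within the clusters of that class alone the count was 0 of 8 in cluster 5 (1.32%), 0 of 8 in cluster 6 (5.84%) and 0 of 7 in cluster 21 (3.67%). Cluster 5 gave 279 of the 794 GFP+ cells of the class and 554 of its 768 GFP- cells. The smooth muscle-like members were S100a4, S100a6 (2376 against 896 CPM) and S100a10 (69.3 against 32.4). Within cluster 4 alone they stood at 335 against 117, 1822 against 797 and 23.4 against 21.4 CPM. With cells assigned one by one from markers, the S100a10 log2 ratio was −0.29, the other way. The macrophage-like members were S100a6 (1096 against 533 CPM), S100a11 (432 against 169), S100a8 and S100a9. The last pair, 218 and 380 UMIs against 0 in 77 GFP- cells, reached the minimum CPM only through GFP+ and came from 3 cells with neutrophil markers, so that part of the count is no result about the class. Endothelial-like cells of the WT libraries also showed the S100a4 difference, with 152 against 49.6 CPM.

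**Figure D3:**
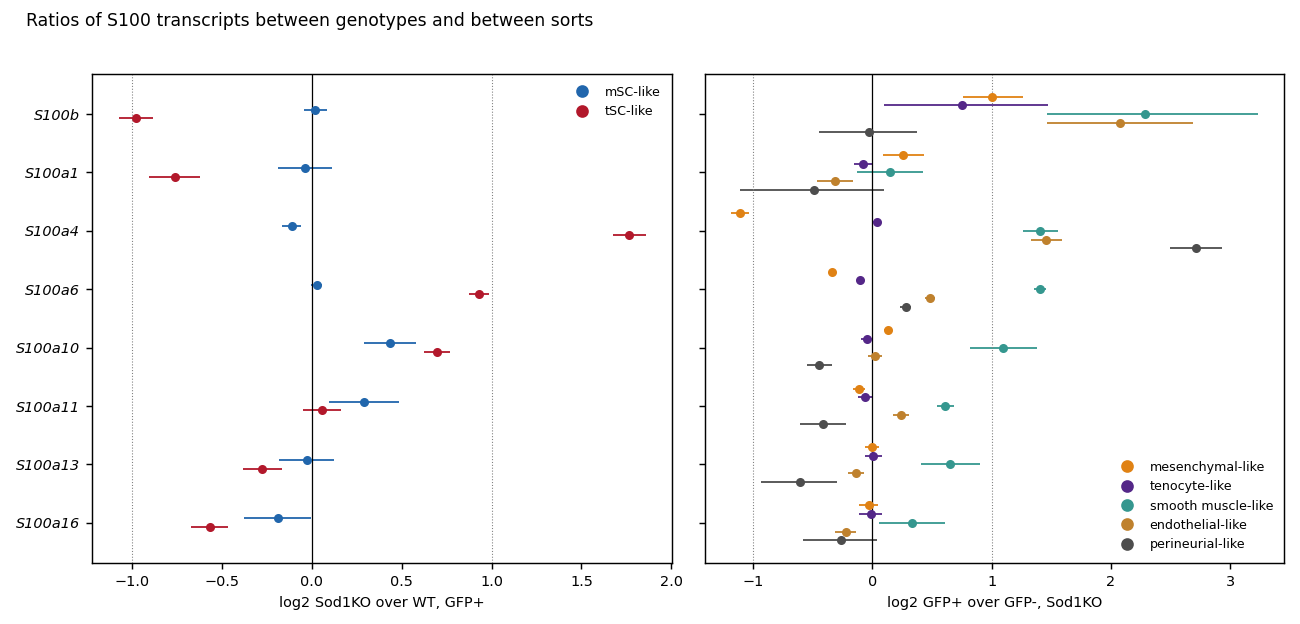
Log2 ratios (x axis) of 8 S100 genes (y axis), left for Sod1KO over WT in mSC-like and tSC-like cells of GFP+, right for GFP+ over GFP- within 5 classes of Sod1KO, with exact conditional binomial 95% intervals and dotted lines at 2-fold. S100a4 lies at 1.77 in tSC-like cells on the left and runs from −1.11 in mesenchymal-like to 2.71 in perineurial-like cells on the right.

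The partners of S100 proteins were described from lists of annexins and scaffolds, receptors, other EF-hand proteins and S100a1 targets. None of the 9 annexin and scaffold genes with enough counts was past 2-fold between genotypes in either Schwann-like class, with medians of −0.07 (mSC-like) and 0.17 (tSC-like) against −0.03 and −0.02 over all genes. The scaffold Ahnak, to which S100a10 and annexin A2 bind, had 979 and 779 CPM in mSC-like cells. In tSC-like cells Anxa2 had 420 and 687 CPM, Anxa1 114 and 213, and Anxa5 528 and 665. Fgf1, the cargo of S100a13, had 293 and 204 CPM in mSC-like cells and 18.6 and 8.77 in tSC-like cells.

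Of 6 receptor genes, 5 had enough counts in tSC-like cells, and 3 of those 5 were past 2-fold, against 6.85% of all genes there. Alcam, which encodes an adhesion molecule of the immunoglobulin family, had 77.9 and 208 CPM, a log2 ratio of 1.42 (1.27 to 1.57). Tlr4, a receptor described for S100a8 and S100a9, had 14.2 and 28.9 CPM, 1.03 (0.68 to 1.39). Cd36 had 22.6 and 7.74 CPM, −1.55 (−1.96 to −1.14). These class values stand beside the unequal shares of clusters 12 and 8 in the libraries, so the clusters were also read alone, a step added after the data had been seen. Alcam was 44.6 and 47.7 CPM in cluster 12, and in cluster 8 it was lower with the label Sod1KO, 265 against 444. Tlr4 was 13.01 and 21.3 CPM in cluster 12 and 28.4 and 30.8 in cluster 8, and Cd36 23.8 and 19.3 and then 10.1 and 2.88. Bsg and Mcam, also described as receptors, had 591 and 360 CPM in WT tSC-like cells. Ager, the receptor RAGE, had 2 to 9 UMIs in each Schwann-like class. In mSC-like cells 0 of 3 receptors with enough counts were past 2-fold. Of the other EF-hand genes with enough counts, Calm2 and Calm3 (calmodulins), Sri and Pdcd6 were within 2-fold in both classes, as was Atp2a2 among the S100a1 targets.

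Across 26 groups of cells (a class in 1 library, at least 50 cells), the genes whose level was most like that of S100b on the scale log2(CPM + 10) were Plekha4, Bicd1, Megf9, Gca and Paqr6, with Pearson's r of 0.94, 0.94, 0.94, 0.94 and 0.94 among 11259 genes. The groups share libraries, and these r are descriptions. The closest genes were Nrbf2 (0.86) for S100a1, Gabarap (0.83) for S100a4, Paxx (0.88) for S100a6, Pigt (0.92) for S100a10, Sfxn1 (0.85) for S100a11, Arsa (0.93) for S100a13 and Nfib (0.86) for S100a16. For S100a8 and S100a9 the value was above 0.99 with Il12b, and nearly all of their UMIs came from 1 of the groups. Among members, S100a8 and S100a9 were the most alike (1.00), and S100b and S100a11 ran most opposite (−0.63).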

How the data were processed

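Single cells of 4 libraries (WT and Sod1KO, GFP+ and GFP-) were measured by droplet 3' RNA sequencing. The deposited values are raw UMI counts per gene and barcode, made by the authors with Cell Ranger 7.1.0 per the file headers, while the methods name a later version. The submitters' notes name mm10 and Seurat 4.30, and the methods name GRCm39 and GRCm38. The authors' later removal of free RNA and doublets is not in the deposited counts.

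Barcodes were kept above 200 detected genes and below 10% of UMIs from the 13 mitochondrial genes, and 890 doublets (4.90%) scored by simulated neighbours were removed. The total depth ranged from 21959719 to 105954116 UMIs per library. The 2000 most variable genes, with S100 genes left out, 30 components and 20 neighbours gave 35 Leiden clusters at resolution 1 (Python 3.11.15, leidenalg 0.10.2). A cluster was named from at least 3 fixed markers above 20 CPM and 2 times the mean of other clusters, making up 70% of its list, or 50% with a marker among its 10 leading genes. Clusters with markers of another class, shallow clusters and cycling clusters stayed unnamed, 14 in all. These naming limits were set after the clusters were seen. The study's integration and clustering tools were not used, so classes may differ from the study's.

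Counts were summed per class and library and given as CPM. Ratios are log2 of 2 CPM values with conditional binomial 95% intervals, with 0 UMIs set to a floor of 3, for classes of 50 cells or more. Intervals for shares are Clopper-Pearson and for levels Poisson. Functions were tested on simulated data. The members, lists and named genes were chosen with earlier results of these data known. All 10 members were named, as were list genes past 2-fold in Schwann-like cells, the highest 3 of each list and direct partners. There are no replicates. The GFP+ and GFP- libraries of a genotype came from the same pool of mice. Results that rest on certain single genes are not reported here.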

Additional observations from a re-analysis of the deposited data

Results flagged for a closer look

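The S100a4 difference between GFP+ and GFP- cells of the libraries labelled Sod1KO ran in opposite directions in different classes, with intervals that exclude 0 on both sides. The log2 ratio was 1.46 in endothelial-like cells and −1.11 in mesenchymal-like cells, a gap of 2.56. Against the 2.71 of perineurial-like cells, the mesenchymal-like value lay −3.82 away, and against the 1.41 of smooth muscle-like cells −2.52. With 1 library per sort these gaps between classes were not tested. Each value stands on 220 to 5657 UMIs of S100a4. In WT the mesenchymal-like class had 42 GFP- cells, too few for the comparison, and their 454 CPM stood against 346 in GFP+. Cluster 5 gave 33 of those GFP- cells and 121 of the 526 GFP+ cells. Within it the WT order was the other way, with 738 CPM in GFP+ against 464 in GFP-. In the libraries labelled Sod1KO, cluster 5 gave 279 of 794 GFP+ cells and 554 of 768 GFP- cells of the class. There S100a4 had 299 against 582 CPM.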

How the results depend on the processing

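S100b in mSC-like cells over other cells of WT GFP+ stayed above a log2 ratio of 3.5 under every alternative run: it was 3.79 with a stricter filter (over 500 genes, under 5% mitochondrial), 4.00 with doublets kept, 3.56 as a mean over cells, 4.33 after subtracting 5% free RNA and 4.00 without clusters held over 80% by 1 library. Its CPM there was 676 with the stricter filter and 763 after the subtraction. Its genotype ratio in mSC-like cells, near 0, was −0.14 with the stricter filter and −0.079 when cells were assigned one by one from markers. The S100b level of tSC-like cells of WT was 288 CPM with doublets kept, and the genotype ratio there was −0.80 with doublets kept, −1.10 as a mean over cells and −0.26 without library-specific clusters. The S100a4 ratio in tSC-like cells was 1.67, 1.53 and −0.075 in the same order, and 2.01 after the free RNA subtraction. Leaving out library-specific clusters leaves cluster 12 alone. Clusters 12 and 8 alone, an alternative chosen after seeing the data, gave −0.075 and 0.12 for S100a4 and −0.26 and −1.68 for S100b. In cluster 8 alone the ratio of the receptor gene Alcam was −0.75. For the whole tSC-like class, the number of members past 2-fold between genotypes was 1 in the report. It was 2 with cells assigned one by one, 2 as a mean over cells, 2 after the subtraction and 0 without library-specific clusters. The S100b sort ratio of mesenchymal-like cells was 1.36 as a mean over cells. The share of WT GFP+ cells outside Schwann-like classes with an S100b UMI was 21.3% unthinned and 7.66% at 2000 UMIs, and that of WT GFP- was 2.57% unthinned. With the stricter filter the 3 cells held 100% of the S100a9 UMIs. With no minimum CPM, 1560 genes were past 2-fold in mSC-like cells (51 in the report) and 2847 in tSC-like cells (490). When cells were assigned one by one, the genotype ratio of S100a8 in macrophage-like cells became −2.25 and the sort ratio of S100a10 in smooth muscle-like cells −0.29. The cause of these changes was not tested, apart from the clusters left out. Clustering with S100 genes kept, or at resolution 0.5, moved none of the ratios named here beyond its interval. No paired analysis was possible because each group is 1 library. Depth limits S100b in satellite-like, pericyte-like and macrophage-like cells, with 0 to 10 UMIs in a library.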

Other observations

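S100a5, which is no member here, had 977 (WT) and 644 (labelled Sod1KO) UMIs among GFP+ cells, and 13 and 409 among GFP- cells. In tenocyte-like GFP+ cells this came to 62.0 and 25.4 CPM. Among classes of 50 cells or more, no other of the 7 family genes reached 20 CPM in a GFP+ library. S100a2 and S100a3 were highest in mSC-like cells of both GFP+ libraries, at 15.03 and 12.3 CPM for S100a2 and 8.15 and 5.91 CPM for S100a3.

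S100b was also measured in small or shallow unnamed clusters. Cluster 34, with 6 and 34 cells in the GFP+ libraries and led by the bone genes Bglap2 and Bglap, had 188 CPM (135 to 257) and 137 CPM (113 to 164). The shallow cluster 16, which carried 10 of 10 muscle fibre markers at a median of 1191.5 UMIs per cell, had 204 CPM (154 to 265) and 299 CPM (243 to 364) in the GFP+ libraries, and 0 and 3 UMIs of S100b in the GFP- libraries.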
